A study of Mus musculus with 33 samples.

Results

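CD11bhi YFP- cells are a kidney population sorted as CD45+ Ly6C- MHCII+ CD64+ F4/80low CD11bhi cells without YFP, and they were set against kidney type 2 conventional dendritic cells (cDC2), sorted as CD45+ Ly6C- MHCII+ CD11c+ CD64- CD11b+ YFP+ cells. The comparison used 4 of the 33 libraries of the series: the 2 CD11bhi YFP- libraries and the 2 kidney cDC2 libraries that share their name prefix (BS) and their sort codes, SR18_034Kid1 and SR18_036. Both groups came from 10-week-old C57BL/6 mice homozygous for Clec9a-Cre and for the Rosa-YFP reporter. The YFP label marks cells in which Cre from Clec9a, a gene of dendritic cell precursors and of cDC1, has been active, so the gates of the compared cells differ in CD64, in F4/80, in CD11c, in the CD11b level and in YFP at once. The labels do not say whether the libraries of a group came from separate animals, so p-values measure the spread between libraries, which may be technical. Beside the 4 libraries, levels are given in 5 libraries of CD11bhi YFP+ cells, which have the same surface gate with YFP, in 3 libraries of F4/80hi YFP- cells, which are CD64+ F4/80hi CD11blow kidney macrophages, and in 3 kidney cDC2 libraries of other sort codes. All these cells came from mice of the same age, background and alleles.

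Conventional dendritic cells and macrophages share MHC class II and CD11b in the kidney, which makes them hard to part by surface staining. Macrophages depend on the receptor for colony stimulating factor 1, secrete complement C1q, bind IgG through CD64 and take up dying cells. cDC2 descend from dendritic cell precursors under FLT3 ligand, depend in part on IRF4, and on maturation induce the chemokine receptor CCR7, with which they move to lymph nodes. The comparison asks which transcripts part CD64+ CD11bhi cells without the YFP mark from cDC2 of the same sort codes.

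In these libraries CD11bhi YFP- cells had more RNA of C1q, of the receptors for CSF1 and fractalkine, of the metalloproteinases Mmp12 and Mmp13 and of the CD64 gene Fcgr1. They had less RNA of Ccr7, Cd83, Kit, Fscn1, Id2 and Cd200, genes of conventional and mature dendritic cells. Most genes of the lists of these cells did not pass, among them Flt3 and Zbtb46, and Irf8 was higher in CD11bhi YFP- cells. Of the macrophage genes, Timd4 and Gpr34 were lower in CD11bhi YFP- cells and Mertk had no read. The class II gene H2-Ab1 and the cDC2 lectin gene Cd209a did not pass the test. Of 14258 genes tested, 1179 (8.27%) were called, 410 of them (2.88%) higher and 769 (5.39%) lower in CD11bhi YFP- cells, where called means an adjusted p under 0.05 (edgeR's quasi-likelihood test, Benjamini-Hochberg over all genes tested) and a log2 fold no closer to 0 than 1 or -1. Of these, 200 (1.4%) were higher and 259 (1.82%) lower with a mean of at least 10 CPM, which are counts scaled to the library's gene reads, in the higher group and a log2 ratio of at least 1 in the same direction in both sort-code pairs. The shares of 2.88% and 5.39% over all genes tested are the ones to set beside each count of list members below. The spread behind each p came from all 33 libraries, since 2 libraries a group give little of their own. When each group was given its own spread (limma voom with 1 quality weight per group), 39 genes were called higher and 0 lower, although 550 and 755 had an unadjusted p under 0.05. All 39 were among the 410, and 38 were among the 200. The 4 libraries alone gave 1 higher and 0 lower calls, although 489 and 558 genes had an unadjusted p under 0.05.

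**Figure D1:**
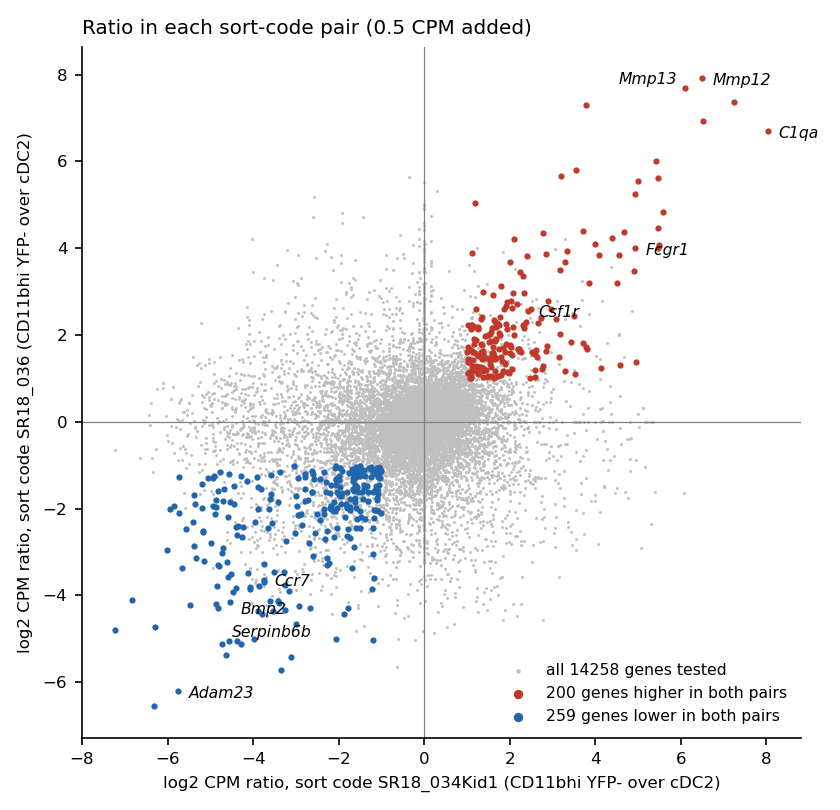
Log2 ratio of CPM in CD11bhi YFP- over kidney cDC2 for each gene, with 0.5 CPM added, in the pair of libraries of sort code SR18_034Kid1 (horizontal axis) and of SR18_036 (vertical axis). Red points are the 200 genes higher and blue points the 259 genes lower in both pairs, and grey points are all 14258 genes tested; the 2 ratios are defined by the rule for the coloured genes.

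The CD11bhi YFP- libraries resembled each other less than the cDC2 libraries did. Across the 14258 genes, which are not independent, log2 CPM correlated at r = 0.882 between the 2 CD11bhi YFP- libraries and at 0.971 between the 2 cDC2 libraries, while r between the groups was 0.893 to 0.927. Gene reads numbered 16113616 and 16427546 in CD11bhi YFP- libraries, against 20893184 and 20131007 in cDC2 libraries. Genes at 1 CPM or more numbered 9735 and 10482 in CD11bhi YFP-, against 10998 and 11051 in cDC2. Of 6888 genes at 10 CPM or more in all CD11bhi YFP+ and kidney cDC2 libraries, 86 were under 1 CPM in CD11bhi YFP- replicate 1 and 2 in replicate 2. The part of such missing transcripts in the lower calls was not tested. Of the 259 lower genes, 85 were under 1 CPM in CD11bhi YFP- replicate 1 and 42 in replicate 2. Over all 14258 genes tested the numbers were 4567 and 3761, but these take in genes scarce in cDC2 as well. The 259 had a mean of at least 10 CPM in cDC2, so the whole set is no like baseline for them. The 6888 genes are nearer to them in cDC2 level. CD11bhi YFP+ replicate 4, of sort code SR18_034Kid1, had 45.8% of its reads unmapped. Without CD11bhi YFP- replicate 2, 802 genes were called higher and 2125 lower; without replicate 1, 470 and 860. Without kidney cDC2 replicate 1, 166 were called higher and 529 lower, and without its replicate 2, 246 and 540. In bulk RNA, fewer cells of a type and less RNA per cell cannot be told apart.

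Of 11 genes of the sort panel, those for CD64 and F4/80 were called, both higher in CD11bhi YFP- cells, and 0 were called lower. Fcgr1, which encodes CD64, was at 66 and 120.2 CPM in CD11bhi YFP- cells, against 1.67 and 7.05 CPM in kidney cDC2, a log2 fold of 4.42 ± 0.71 (SE; adjusted p = 0.000139, edgeR). Emr1, also named Adgre1, encodes F4/80, which was low and not absent in the CD11bhi gate; it was at 146 and 198 CPM in CD11bhi YFP- cells, against 46.9 and 38.7 CPM in kidney cDC2 (adjusted p = 0.000532, edgeR). For both genes the groups did not overlap, which held for 39.15% of all genes tested, and also for Itgam and Itgax, neither of which was called. Emr1 was far higher in F4/80hi YFP- cells, at 1928 to 2566 CPM. Itgam, which encodes CD11b, did not pass the test between the CD11bhi gate and the CD11b+ gate of cDC2 (adjusted p = 0.747, edgeR), at 541 and 648 CPM in CD11bhi YFP- cells, against 803 and 694 CPM in kidney cDC2. The CD11c gene Itgax was at 552 and 459.7 CPM against 425 and 329 CPM in cDC2 (log2 fold 0.43 ± 0.20, adjusted p = 0.183, edgeR), although CD11c was gated in cDC2 only. The class II gene H2-Ab1 was at 26950.5 and 34406 CPM in CD11bhi YFP- cells, against 27605 and 34635 CPM in kidney cDC2, a log2 fold of -0.02 ± 0.33 (adjusted p = 1, edgeR). Clec9a, whose copies carry Cre in these mice, had 0 and 0.938 CPM in CD11bhi YFP- cells and 0 and 0.207 CPM in cDC2.

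Complement C1q, the recognition unit that starts the classical pathway, was among the 12 largest higher folds with all its chains. It is built of A, B and C chains whose genes lie side by side on chromosome 4, C1qb at 136880126 to 136886200, C1qc at 136889801 to 136892936 and C1qa at 136895916 to 136898844 (RefSeq, GRCm38.p6). C1qa was at 219 and 603 CPM in CD11bhi YFP- cells, against 0.334 and 5.34 CPM in kidney cDC2, C1qb at 641 and 1882 CPM against 6.49 and 14.9 CPM in cDC2, and C1qc at 348 and 979.6 CPM against 1.81 and 5.39 CPM in cDC2. Every CD11bhi YFP- library was above every cDC2 library for each chain, which the rule for naming the largest folds required. The groups did not overlap for 39.15% of all genes tested. Replicate 2, of sort code SR18_036, was the higher library for all 3 in CD11bhi YFP- cells and in cDC2 alike. The log2 folds were 7.19 ± 0.94 for C1qa, 6.88 ± 0.78 for C1qb and 7.53 ± 0.98 for C1qc (SE; adjusted p = 1.32e-05, 2.17e-06 and 1.24e-05, edgeR). The 3 genes were also called with group weights. CD11bhi YFP+ cells held like levels, from 815 to 1826 CPM for C1qb, and F4/80hi YFP- cells had more, at 7436 to 8519.8 CPM.

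The RefSeq promoters of C1qb and C1qc were chosen for show from the C1q neighbours that moved together, and only windows with a match were kept. That of C1qa is not shown. Each of the pair holds the letters GAGGAA, a core of the sites that the myeloid factor PU.1 binds, on 1 of its strands, and capitals mark the match. The 250 bases before the start in the RefSeq promoter table are printed 5′ to 3′ along the strand of the gene (GRCm38.p6).
C1qb promoter, chr4:136886201-136886450 (-): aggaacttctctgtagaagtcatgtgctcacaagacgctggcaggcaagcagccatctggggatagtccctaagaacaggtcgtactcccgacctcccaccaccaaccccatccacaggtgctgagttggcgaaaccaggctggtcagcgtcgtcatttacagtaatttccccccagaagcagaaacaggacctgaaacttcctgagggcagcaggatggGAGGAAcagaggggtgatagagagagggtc
C1qc promoter, chr4:136892915-136893164 (-): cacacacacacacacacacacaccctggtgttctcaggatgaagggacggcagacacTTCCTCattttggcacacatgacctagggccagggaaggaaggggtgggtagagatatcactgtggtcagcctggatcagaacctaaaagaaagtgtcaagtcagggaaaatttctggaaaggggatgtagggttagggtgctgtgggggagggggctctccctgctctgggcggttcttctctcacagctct
In C1qb the match read GAGGAA and ended 24 bases before the start. In C1qc it read TTCCTC, its reverse complement, and ended 187 bases before an inner annotated start. The C1qc window runs into the span of the gene given above, so it does not end before the first base of the gene. GAGGAA stood on either strand in the same window of 37.1% of the 151 higher genes with a promoter sequence, of 28.8% of the 191 lower genes, and of 26.5% of the 10660 genes tested that have one. These matches describe letters, not binding.

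Some receptors of complement and of IgG were higher as well, while most of both lists did not pass. Of 23 genes of complement and its receptors tested, 6 were called higher and 0 lower, and the median log2 fold of the list was 0.27 against 0.00 over all genes tested. C3ar1, the receptor for the C3a fragment, was at 64.1 and 46.7 CPM in CD11bhi YFP- cells, against 2.05 and 1.76 CPM in kidney cDC2. Its log2 fold was 4.85 ± 0.68 (adjusted p = 3.41e-05, edgeR), and C3ar1 was not called with group weights. C5ar1, the receptor for C5a, was at 0 and 14.5 CPM against 0 and 0 CPM in cDC2, so that its call (adjusted p = 0.00611, edgeR) rested on CD11bhi YFP- replicate 2; it was lost without that library or without either cDC2 library. Cfb, factor B of the alternative pathway, showed the same split at 0 and 38.6 CPM against 0.191 and 2.33 CPM in cDC2, and without CD11bhi YFP- replicate 2 its log2 fold was -7.28, called lower. The call of Cfb was also lost without cDC2 replicate 1. Among 11 Fc receptor genes, 3 were called higher and 1 lower, with a median log2 fold of -0.02. Fcgr3, the low-affinity IgG receptor, was at 330.0 and 539 CPM against 109.5 and 119 CPM in cDC2, a log2 fold of 1.92 ± 0.44 (adjusted p = 0.00519, edgeR), and was not called without cDC2 replicate 1. Fcgr4 was at 83.4 and 195 CPM against 41.7 and 47.9 CPM in cDC2 (adjusted p = 0.0227, edgeR), a call that held without CD11bhi YFP- replicate 1 and was lost without any of the other 3 libraries. Fcgr genes share sequence with each other, so reads may be split among them. The gene that fell, Fcrla, encodes an Fc receptor-like protein of B cells, and had no read in CD11bhi YFP- libraries, against 5.87 and 10.6 CPM in cDC2.

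Csf1r, Cx3cr1 and Csf3r were the receptors for growth factors and chemokines called higher in CD11bhi YFP- cells. Csf1r, the receptor that macrophages need to survive, was at 1303 and 1189.8 CPM in CD11bhi YFP- cells, against 242 and 201 CPM in kidney cDC2. The log2 fold of Csf1r was 2.49 ± 0.41 (adjusted p = 0.000227, edgeR). Cx3cr1, the fractalkine receptor, was at 292 and 298 CPM against 40.4 and 19.9 CPM in cDC2, a log2 fold of 3.29 ± 0.67 (adjusted p = 0.00186, edgeR). Both genes were called with group weights too. In CD11bhi YFP+ cells Csf1r lay at 999 to 1664 CPM and Cx3cr1 at 167 to 467 CPM. Csf3r, the receptor for granulocyte colony stimulating factor, was at 21.6 and 36.9 CPM against 0 and 1.19 CPM in cDC2, a log2 fold of 5.63 ± 0.85 (adjusted p = 0.000134, edgeR). Of 26 chemokine and growth factor receptors tested, these 3 were called higher and 2 lower, which are Ccr7 and Kit, and the median log2 fold was 0.05.

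Of 50 macrophage genes tested, 22 were called higher and 2 lower, with a median log2 fold of 1.30, and 11 were called higher with group weights. Mertk, which encodes a receptor for dying cells and is a standard macrophage marker, had no read in any of the 4 libraries, against medians of 0.864 CPM in CD11bhi YFP+ cells and 29.4 CPM in F4/80hi YFP- cells. Its relative Axl was at 869 and 715 CPM in CD11bhi YFP- cells, against 137 and 147 CPM in kidney cDC2, a log2 fold of 2.48 ± 0.29 (adjusted p = 2.94e-06, edgeR). Trem2, a lipid receptor of macrophages, was at 0 and 15.8 CPM in CD11bhi YFP- replicates 1 and 2, with no read in cDC2. The call of Trem2 was lost without CD11bhi YFP- replicate 2. Timd4, a receptor for phosphatidylserine on resident macrophages, went the other way, with no read in CD11bhi YFP- cells against 9.93 and 16.1 CPM in cDC2. It was at least 144-fold lower when 3 reads are assumed over the CD11bhi YFP- libraries. Timd4 was scarce in F4/80hi YFP- cells too, at 0 to 0.826 CPM, against 2.61 to 9.36 CPM in cDC2 of other sort codes. Mertk was picked after its values were seen.

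Both metalloproteinases of the largest differences, Mmp12 and Mmp13, were close to absent from cDC2. Mmp12, the macrophage elastase, was at 457 and 482 CPM in CD11bhi YFP- cells, against 4.58 and 1.5 CPM in kidney cDC2, a log2 fold of 7.26 ± 0.88 (adjusted p = 5.04e-06, edgeR). Mmp13, a collagenase, was at 33.7 and 103 CPM in CD11bhi YFP- cells and had no read in cDC2. With 3 reads assumed over both cDC2 libraries, Mmp13 was at least 913-fold higher (adjusted p = 2.39e-05, edgeR). Mmp13 was not called with group weights, where its adjusted p was 0.495, and Mmp12 was. In CD11bhi YFP+ cells Mmp12 was at 410.0 to 828 CPM and Mmp13 at 37.2 to 154 CPM, and in F4/80hi YFP- cells at 479 to 915 and 267 to 1417 CPM. The genes lie on chromosome 9, Mmp13 at 7272514 to 7283333 and Mmp12 at 7344397 to 7360461. A window of each gene that holds the AP-1 letters TGANTCA is shown, since AP-1 sites near the start are a known feature of metalloproteinase genes. The match is in capitals (RefSeq, GRCm38.p6, 250 bases before an annotated start, 5′ to 3′). Only windows with a match were kept, so the match in those shown is no finding. The Mmp12 window lies inside the span of the gene given above, before an inner annotated start and not before the first base of the gene.
Mmp12 promoter, chr9:7347124-7347373 (+): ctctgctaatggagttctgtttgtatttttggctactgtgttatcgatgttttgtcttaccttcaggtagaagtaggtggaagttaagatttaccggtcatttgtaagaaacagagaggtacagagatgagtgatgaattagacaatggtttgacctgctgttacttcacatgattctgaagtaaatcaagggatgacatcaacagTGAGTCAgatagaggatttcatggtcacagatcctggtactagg
Mmp13 promoter, chr9:7272264-7272513 (+): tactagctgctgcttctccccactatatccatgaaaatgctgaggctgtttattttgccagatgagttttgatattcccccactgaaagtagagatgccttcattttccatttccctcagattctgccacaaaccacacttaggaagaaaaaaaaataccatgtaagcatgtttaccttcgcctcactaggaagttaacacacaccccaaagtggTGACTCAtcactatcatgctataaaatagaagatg
The match ended 37 bases before that inner start in Mmp12 and 28 bases before the start in Mmp13. TGANTCA was found in 6.62% of the higher, 7.85% of the lower and 5.6% of all tested genes with a promoter sequence, both strands searched.

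Tlr7, Siglec1 and Itga8 also had no read in cDC2. Tlr7, the endosomal receptor for single-stranded RNA, was at 23.5 and 13.8 CPM in CD11bhi YFP- cells, at least 250.1-fold higher (adjusted p = 3.34e-06, edgeR). Siglec1, a sialic acid receptor of tissue macrophages, was at 21.6 and 7.5 CPM in CD11bhi YFP- cells, at least 195-fold higher (adjusted p = 0.000665, edgeR). Itga8, an integrin chain placed here in the cDC1 list, was at 14.7 and 18.4 CPM in CD11bhi YFP- cells, at least 222-fold higher (adjusted p = 6.13e-07, edgeR). Tlr7 and Itga8 were called with group weights and Siglec1 was not. Of 21 Toll-like receptors and adaptors, 4 were called higher and 1 lower. The lipopolysaccharide co-receptor genes Cd14, at 319 and 484 CPM against 178 and 158 CPM in cDC2, and Ly96, at 21.2 and 19.1 CPM against 9.41 and 6.85 CPM in cDC2, were higher in CD11bhi YFP- cells (adjusted p = 0.00413 and 0.00589, edgeR). Both calls were lost without cDC2 replicate 2, and that of Cd14 also without CD11bhi YFP- replicate 2. Tlr8 was at 13.6 and 0.0625 CPM against 0 and 0.726 CPM in cDC2, so that 1 library carried its call; without CD11bhi YFP- replicate 1 the log2 fold was -2.37. The call of Tlr8 was also lost without cDC2 replicate 1. Pilra, an inhibitory receptor, was at 84.3 and 153 CPM against 2.15 and 2.8 CPM in cDC2, and the amino acid transporter gene Slc7a8 at 59.4 and 31.4 CPM against 0.907 and 0 CPM in cDC2 (adjusted p = 5.47e-05 and 5.13e-07, edgeR); both were called with group weights.

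**Figure D2:**
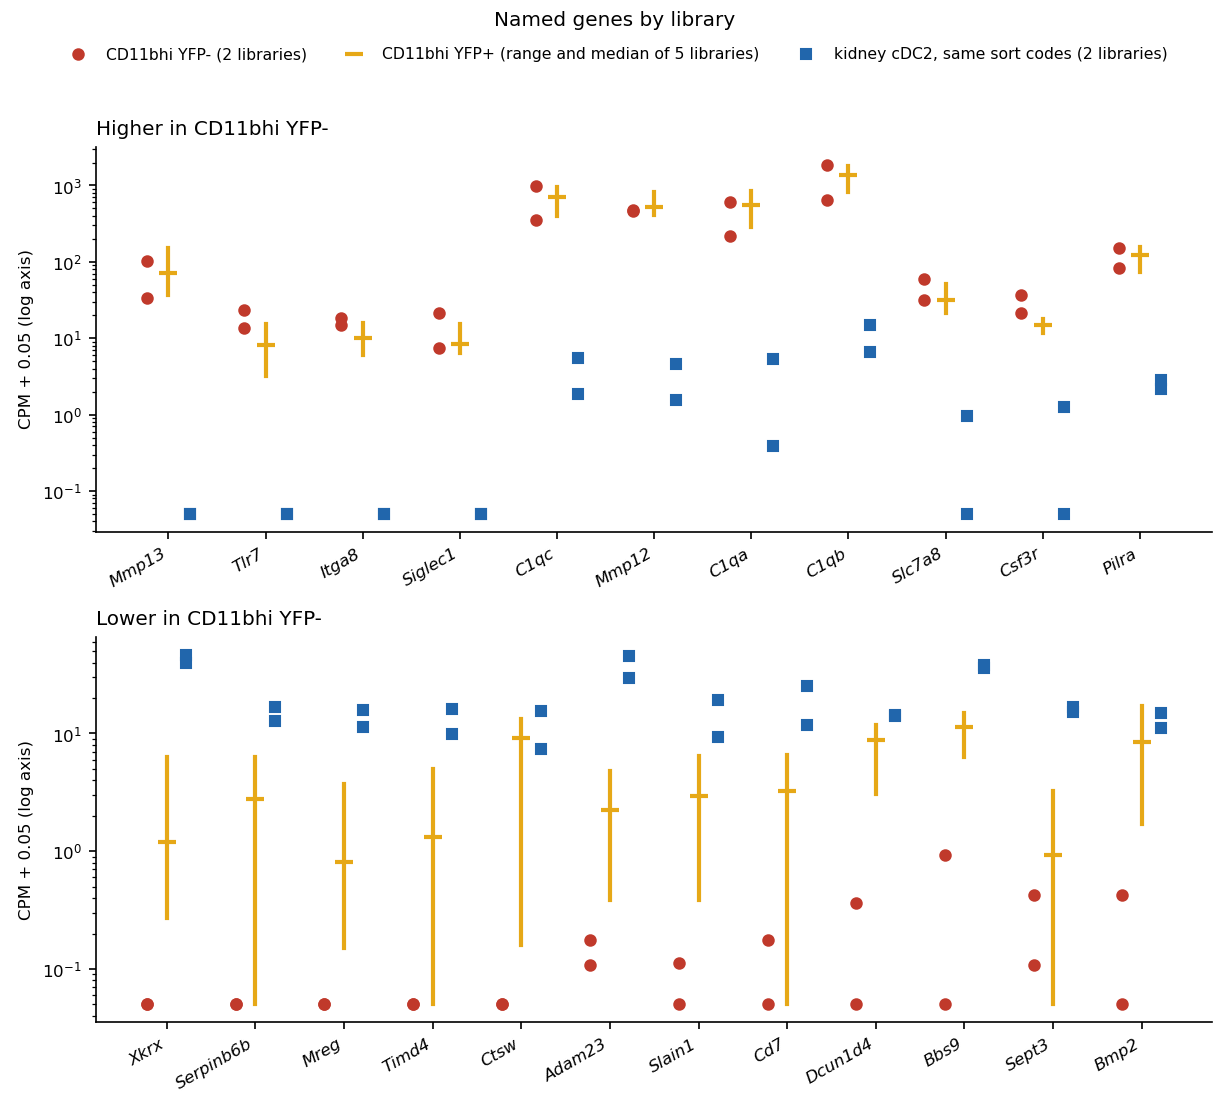
CPM of genes with the largest log2 folds in each direction (log axis, 0.05 CPM added so that 0 can be drawn), with red points for the 2 CD11bhi YFP- libraries, yellow lines for the range and median of 5 CD11bhi YFP+ libraries and blue squares for the 2 kidney cDC2 libraries. For the higher genes CD11bhi YFP+ libraries lie near CD11bhi YFP- libraries. For Bmp2, Ctsw and Dcun1d4 the CD11bhi YFP+ median in CPM lies nearer cDC2, with CD11bhi YFP- at or near 0. Their CD11bhi YFP+ ranges reach down to 1.66, 0.111 and 3 CPM, in libraries of sort codes SR18_034Kid1 or SR18_036. On the log axis the CD11bhi YFP+ medians of Serpinb6b, Timd4, Slain1, Cd7 and Bbs9 lie nearer cDC2 as well.

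Uptake and lysosomal genes rose in small number. Of 25 scavenger and efferocytosis receptors, 3 were called higher (Axl, Stab1 and Itgb5) and 2 lower (Timd4 and Itgb3). Stab1 was at 3.21 and 18 CPM in CD11bhi YFP- cells, against 0.239 and 3.42 CPM in cDC2. The groups overlapped for Stab1, and its call was lost without CD11bhi YFP- replicate 2 or cDC2 replicate 1. Itgb3 had no read in CD11bhi YFP- cells, against 4.97 and 3.63 CPM in cDC2. The call of Itgb3 was lost without either CD11bhi YFP- library or without cDC2 replicate 1. Itgb5, an integrin chain that binds bridging molecules on dying cells, was at 119 and 95.7 CPM against 28.6 and 32.6 CPM in cDC2, a log2 fold of 1.82 ± 0.34 (adjusted p = 0.000836, edgeR). Of 30 genes of lysosomes and lipid handling, 3 (10%) were called higher and 0 lower, with a median log2 fold of 0.43. Ch25h, which makes 25-hydroxycholesterol, was at 22.2 and 12.1 CPM against 1.24 and 0.104 CPM in cDC2, and its log2 fold was 4.63 ± 0.81 (adjusted p = 0.000428, edgeR). Apoe, a lipoprotein of macrophages, was at 47.2 and 121 CPM against 1.53 and 7.99 CPM in cDC2 (adjusted p = 0.0245, edgeR), a call lost without either cDC2 library or without CD11bhi YFP- replicate 2. Lamp2 was at 309.7 and 408 CPM against 169.9 and 183 CPM in cDC2 (adjusted p = 0.00413, edgeR), and was not called without CD11bhi YFP- replicate 2 or without cDC2 replicate 1. Among 15 iron and haem genes, the phagosomal metal transporter gene Slc11a1 rose, at 22.5 and 62.4 CPM against 1.48 and 0.622 CPM in cDC2 (log2 fold 5.31 ± 0.65, adjusted p = 5.74e-06, edgeR). Tfrc, the transferrin receptor, fell, at 0 and 1.13 CPM against 6.16 and 15.3 CPM in cDC2 (adjusted p = 0.00051, edgeR). Tfrc was at 6.02 to 15.2 CPM in CD11bhi YFP+ cells, close to cDC2, and CD11bhi YFP- replicate 1 had no read of it.

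Some genes of dendritic cell identity fell, most did not pass, and Irf8 rose. Of 26 genes of the conventional dendritic cell list, 6 were called lower and 1, Irf8, higher, with a median log2 fold of -0.75. Kit, the receptor for stem cell factor, was at 0 and 4.5 CPM in CD11bhi YFP- cells, against 56.8 and 85.7 CPM in kidney cDC2, a log2 fold of -5.00 ± 1.10 (adjusted p = 0.00373, edgeR). Id2, a regulator of dendritic cell development, was at 116 and 133 CPM against 451 and 496 CPM in cDC2, a log2 fold of -1.93 ± 0.31 (adjusted p = 0.000134, edgeR). Adam23, a member of the core dendritic cell signature in mice, had 0.0584 and 0.125 CPM in CD11bhi YFP- cells, which is 3 reads over both libraries, against 29.6 and 45.7 CPM in cDC2. The ratio of cDC2 to CD11bhi YFP- was 412, with a 95% exact counting interval of 141 to 1997 (adjusted p = 4.48e-06, edgeR). CD11bhi YFP+ cells were low for Kit, at 0.201 to 6.5 CPM, for Id2, at 104 to 176 CPM, and for Adam23, at 0.334 to 4.79 CPM. The growth factor receptor Flt3 was at 234 and 155 CPM against 491 and 408 CPM in cDC2 (log2 fold -1.21 ± 0.73, adjusted p = 0.316, edgeR) and the transcription factor gene Zbtb46, which marks conventional dendritic cells, at 127 and 85.6 CPM against 143 and 168 CPM in cDC2 (log2 fold -0.55 ± 0.34, adjusted p = 0.333, edgeR). Neither passed, and both were close to absent from F4/80hi YFP- cells, with medians of 5.12 CPM for Flt3 and 1.13 CPM for Zbtb46. Irf8 was at 128 and 176 CPM against 43.2 and 41.4 CPM in cDC2 (log2 fold 1.85 ± 0.28, adjusted p = 8.41e-05, edgeR). Flt3, Zbtb46 and Irf8 were picked after their values were seen.

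The cDC2 list itself showed no common direction: 3 of 32 genes were called higher and 5 lower, and the median log2 fold was 0.10. Cd209a, a lectin of kidney cDC2, was at 3688 and 3858 CPM in CD11bhi YFP- cells, against 3555 and 3574 CPM in kidney cDC2, a log2 fold of 0.08 ± 0.89 (adjusted p = 1, edgeR). F4/80hi YFP- cells had a median of 7.57 CPM of Cd209a. Irf4, a transcription factor that cDC2 need, was at 40.2 and 91.6 CPM against 141 and 98.2 CPM in cDC2 (adjusted p = 0.421, edgeR), with the 2 libraries of sort code SR18_036 close to each other. The lectin genes Clec4a2, at 142 and 95.3 CPM against 35.1 and 31.5 CPM in cDC2, and Clec4a3, at 204 and 265 CPM against 40.3 and 33.2 CPM in cDC2, were called higher; they belong to a family of near copies, so reads may be split among members. The lymphotoxin gene Ltb was lower, at 13.8 and 12.4 CPM against 86.2 and 109 CPM in cDC2 (log2 fold -2.90 ± 0.76, adjusted p = 0.0138, edgeR), as was Cd24a at 7.83 and 2.13 CPM against 39.6 and 25.3 CPM in cDC2 (adjusted p = 0.00175, edgeR). The call of Ltb was lost without CD11bhi YFP- replicate 1 or cDC2 replicate 2. Cd7 had 2 reads over the CD11bhi YFP- libraries, against 11.8 and 25.5 CPM in cDC2, a ratio of cDC2 to CD11bhi YFP- of 304 (95% exact counting interval 84.2 to 2512; adjusted p = 0.00785, edgeR), and it was not called without CD11bhi YFP- replicate 1. Of 21 cDC1 genes, 3 were called higher and 7 lower, with a median log2 fold of -0.79. Cd209a, Irf4, Clec4a2 and Clec4a3 were picked after their values were seen.

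The mature dendritic cell list held only lower calls, 7 of 30 genes tested, with a median log2 fold of -1.04. Ccr7, the receptor that leads dendritic cells to lymph nodes, was at 7.54 and 20.4 CPM in CD11bhi YFP- cells, against 107 and 259.7 CPM in kidney cDC2, a log2 fold of -3.72 ± 0.98 (adjusted p = 0.0146, edgeR). It was not called without CD11bhi YFP- replicate 1 or without cDC2 replicate 2, where the cDC2 level was highest. Cd83, which stabilises MHC class II on mature cells, was at 1259 and 1084 CPM in CD11bhi YFP- cells, against 4197 and 4449.7 CPM in kidney cDC2. The log2 fold of Cd83 was -1.88 ± 0.30 (adjusted p = 0.00013, edgeR), with CD11bhi YFP+ cells at 710.5 to 1587 CPM and cDC2 of other sort codes at 3534 to 5476 CPM. Fscn1, the actin-bundling protein of mature dendritic cells, was at 1.64 and 0.375 CPM against 21.2 and 45.6 CPM in cDC2 (log2 fold -5.03 ± 1.06, adjusted p = 0.00257, edgeR). Cd200, an inhibitory ligand, was at 0 and 0.813 CPM against 24.8 and 13.1 CPM in cDC2 (adjusted p = 0.000536, edgeR), while CD11bhi YFP+ cells had 6.04 to 12.7 CPM. The chemokine gene Ccl17 was at 11.5 and 16.4 CPM against 91.7 and 74.9 CPM in cDC2 (adjusted p = 0.0391, edgeR), a call lost when any of the 4 libraries was left out. None of the 7 calls of the list held with group weights.

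Few genes of antigen presentation were called. Of 18 genes of MHC class II presentation, 1 (5.56%) was called higher and 2 (11.1%) lower, with a median log2 fold of -0.15. Over all genes tested, 2.88% were called higher and 5.39% lower. H2-DMb2, a chain of the peptide exchange factor H2-M, was at 85.2 and 135 CPM against 375 and 557 CPM in cDC2 (log2 fold -2.09 ± 0.54, adjusted p = 0.0125, edgeR), and its call was lost without CD11bhi YFP- replicate 1 or cDC2 replicate 2. H2-DMb2 is close in sequence to H2-DMb1, so reads may be split between them. Cd80, a costimulatory ligand, was at 4.03 and 19.8 CPM against 37 and 40.4 CPM in cDC2 (adjusted p = 0.0175, edgeR), a call that was lost without CD11bhi YFP- replicate 1 or without either cDC2 library. Lgmn, a lysosomal protease, was at 291 and 424 CPM against 157 and 161 CPM in cDC2 (adjusted p = 0.00143, edgeR), and was not called without CD11bhi YFP- replicate 2.

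Among 35 cytokines and chemokines, 1 was called higher and 1 lower. Il27, the p28 subunit of interleukin 27, had 1.69 and 5.25 CPM in CD11bhi YFP- cells and no read in cDC2, at least 46.6-fold higher at a low level (adjusted p = 1.88e-05, edgeR). Il1b, a cytokine of inflammation, was at 2041 and 1991 CPM against 3814 and 3724 CPM in cDC2 and did not pass (log2 fold -0.90 ± 0.39, adjusted p = 0.141, edgeR). Of 32 immediate early and heat shock genes, 5 were called lower and 0 higher, with a median log2 fold of -0.65. Ier3 was at 137 and 134 CPM against 410.3 and 380.3 CPM in cDC2, the NF-kB inhibitor gene Nfkbia at 1364 and 1456 CPM against 2774 and 3074 CPM in cDC2, and Tnfaip3, which encodes the NF-kB brake A20, at 242 and 194 CPM against 740.2 and 699 CPM in cDC2 (adjusted p = 0.00409, 0.00748 and 0.0493, edgeR). The call of Tnfaip3 was lost when any of the 4 libraries was left out, and that of Nfkbia without cDC2 replicate 2. Of 31 interferon-stimulated genes, 3 (9.68%) were called higher and 1 (3.23%) lower, with a median log2 fold of 0.51. Oas1a was at 95.3 and 135 CPM against 43.6 and 59.3 CPM in cDC2 (adjusted p = 0.00683, edgeR). The call of Oas1a was lost without CD11bhi YFP- replicate 2 or cDC2 replicate 1. The 27 cell cycle genes held no call, with a median log2 fold of 0.75 and sums of 2587 and 2032 CPM against 1475 and 1356 CPM in cDC2. The replication gene Mcm6 was at 314 and 261 CPM against 174 and 118 CPM in cDC2 (log2 fold 0.97 ± 0.25, adjusted p = 0.0125, edgeR). It missed a call by its log2 fold only, which was short of 1. Of 18 glycolytic genes, 1 (5.56%) was called in each direction, against 2.88% higher and 5.39% lower over all genes tested.

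**Figure D3:**
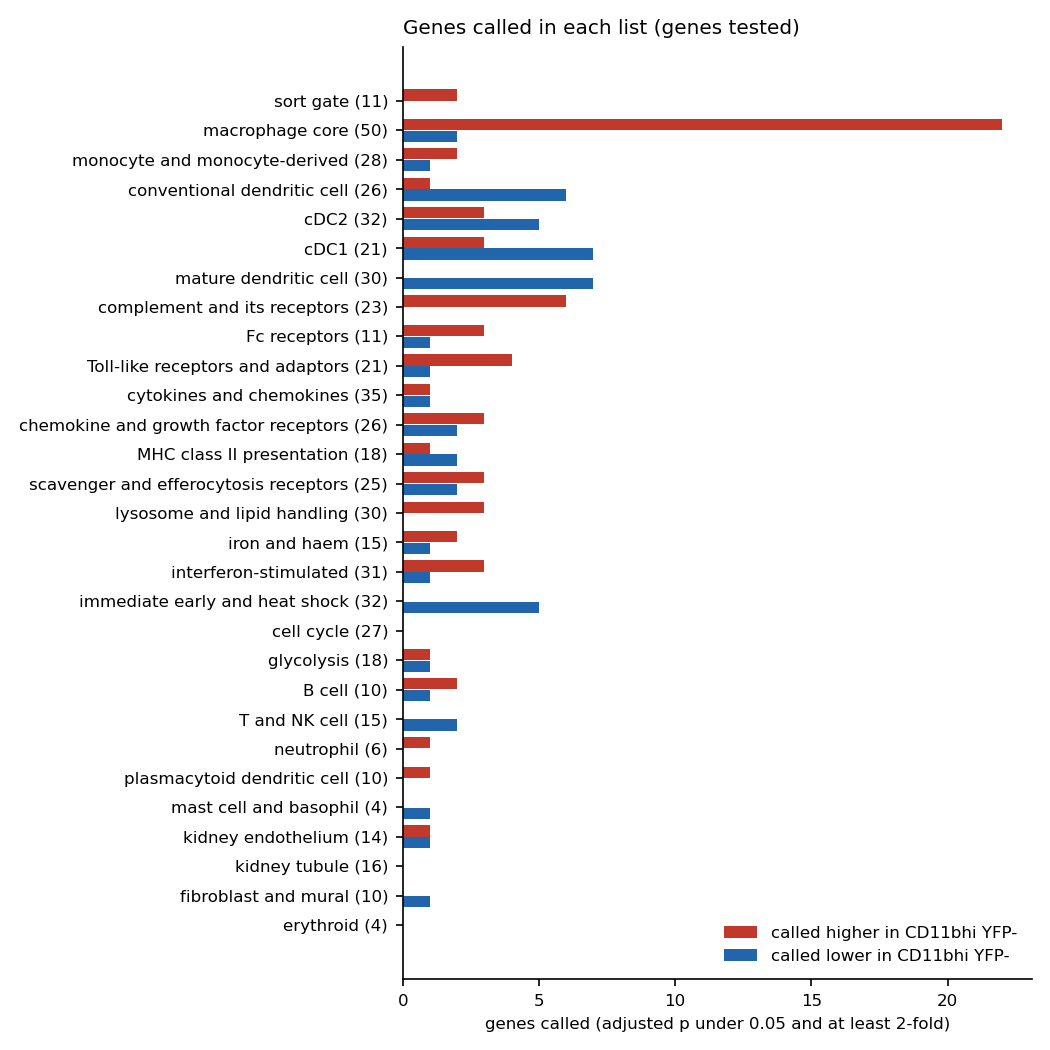
Number of genes of each list called higher (red, above) or lower (blue, below) in CD11bhi YFP- than in kidney cDC2, with the genes tested in brackets. The macrophage list has the most higher calls (22 of 50), and the mature dendritic cell and cDC1 lists have 7 lower calls each.

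The largest lower folds belonged to genes at or near 0 in CD11bhi YFP- cells. Xkrx, a member of the XK family of membrane proteins, had no read there, against 39.5 and 46.5 CPM in cDC2, at least 475-fold lower (adjusted p = 0.00159, edgeR). Serpinb6b, a protease inhibitor, had no read against 12.8 and 16.7 CPM in cDC2, at least 163-fold lower (adjusted p = 4.45e-05, edgeR). Mreg, which acts in melanosome and lysosome transport, had no read against 11.3 and 15.9 CPM, at least 150.1-fold lower, and the protease gene Ctsw had no read against 7.35 and 15.5 CPM, at least 126-fold lower (adjusted p = 0.000904 and 0.00594, edgeR). Bounds assume 3 reads over both CD11bhi YFP- libraries and cover counting error only. Bbs9, a part of the ciliary BBSome complex, was at 0 and 0.875 CPM against 38.5 and 36.1 CPM in cDC2 (log2 fold -6.42 ± 0.58, adjusted p = 1.79e-07, edgeR), and Bmp2, a growth factor of the TGF-beta family, at 0 and 0.375 CPM against 11.1 and 15 CPM in cDC2 (log2 fold -6.09 ± 1.22, adjusted p = 0.00167, edgeR). Sept3, a septin, was at 0.0584 and 0.375 CPM against 15.2 and 16.6 CPM in cDC2, Slain1, which binds microtubules, at 0 and 0.0625 CPM against 9.21 and 19.1 CPM in cDC2, and Dcun1d4, which acts in neddylation, at 0 and 0.313 CPM against 14 and 14.4 CPM in cDC2. In CD11bhi YFP+ cells some of these genes were low, as Xkrx at 0.222 to 6.31 CPM and Mreg at 0.1 to 3.66 CPM. Others ranged from low levels to levels near cDC2, as Bmp2 at 1.66 to 17.2 CPM and Dcun1d4 at 3 to 11.6 CPM. The CD11bhi YFP+ libraries of sort codes SR18_034Kid1 and SR18_036 had 5.01 and 1.66 CPM of Bmp2. They had 3 and 8.68 CPM of Dcun1d4, and 0.111 and 2.81 CPM of Ctsw. None of the 12 genes with the largest lower folds was called with group weights.

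Libraries that the comparison did not use gave the direction of the same genes elsewhere. Between F4/80hi YFP- cells and kidney cDC2 of other sort codes, 114 of the 200 higher genes (57%) were called higher and 6 lower, where 7.71% of all genes tested were called higher. Of the 259 lower genes, 103 (39.8%) were called lower there and 3 higher, against 10.6% of all genes tested called lower. CD11bhi YFP+ libraries of other sort codes, whose prefix differs from that of the cDC2 libraries set beside them, had a mean ratio past a log2 value of 1 in the higher direction for 96 of the 200 genes (48%) and in the lower direction for 0. In the lower direction this held for 76 of the 259 genes (29.3%), and 2 were higher. Over all genes tested, 4.78% were higher and 6.43% lower by that measure. The whole contrast of CD11bhi YFP- with CD11bhi YFP+ called 143 genes (1%) higher and 618 (4.33%) lower, and it shares the CD11bhi YFP- libraries with the comparison reported here. Each of the higher genes in the plot of levels by library missed the threshold between the fractions, with the smallest adjusted p at 0.178 for Tlr7 (edgeR).

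**Figure D4:**
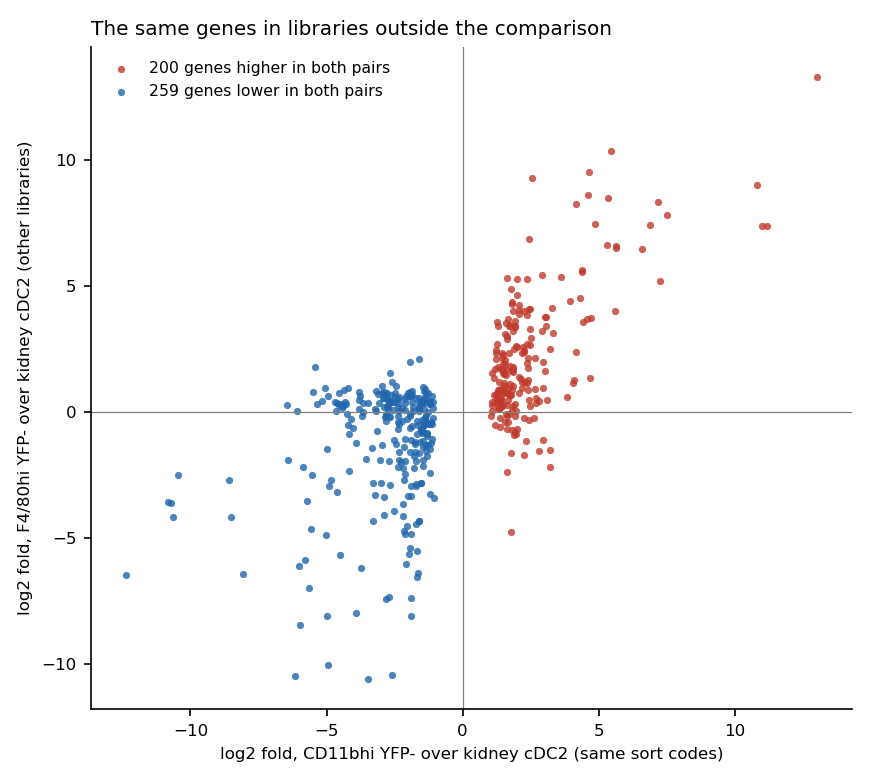
Log2 fold of CD11bhi YFP- over kidney cDC2 (horizontal axis) and of F4/80hi YFP- over kidney cDC2 in other libraries (vertical axis) for the 200 genes higher (red) and 259 genes lower (blue) in both sort-code pairs. Most red points lie above 0, and many blue points lie close to 0 on the vertical axis.

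Markers of other cells were given by the same counts. T and NK cell genes summed to 217 and 174 CPM in CD11bhi YFP- libraries, against 334 and 410.4 CPM in cDC2, with 0 of 15 called higher and 2 lower. Klrd1 made up most of the sum, at 200.4 and 118 CPM against 277 and 265 CPM in cDC2. Kidney tubule genes summed to 97.2 and 51.3 CPM, against 34.9 and 48 CPM in cDC2, with 0 of 16 called. Of 10 B cell genes, 2 were called higher (Cd79a and Cd79b) and 1 lower (Fcrla). The median log2 fold of the B cell list was -0.74, and its sums were 53.3 and 31.5 CPM in CD11bhi YFP- libraries, against 21.3 and 23.0 CPM in cDC2. The calls of Cd79a and Cd79b each held in 1 of the 4 fits that left out a library. Mast cell and basophil genes summed to 0.701 and 10.4 CPM, against 60.5 and 89.7 CPM in cDC2, where nearly all of it was Kit. In CD11bhi YFP- replicate 2 the sum was mostly Kit, at 4.50 CPM, and the mast cell protease gene Cpa3, at 4.94 CPM, which had no read in the other 3 libraries. S100a8, a defining neutrophil gene, had no read in any of the 4 libraries, and the sums of that list were 21.6 and 44.5 CPM in CD11bhi YFP- libraries, most of it Csf3r, against 2.01 and 2.44 CPM in cDC2. Of 28 monocyte genes 2 were called higher and 1 lower, of 10 plasmacytoid dendritic cell genes 1 and 0, of 14 endothelial genes 1 and 1, of 10 fibroblast genes 0 and 1, and of 4 erythroid genes 0 and 0. The part of these cells in the results was not tested.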

How the data were processed

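RNA of sorted cells was isolated with the PicoPure kit, amplified from polyA RNA with SMARTseq v4 and made into libraries without strand information, per the labels' protocols, so overlapping genes on opposite strands cannot be told apart. Per the submitters' processing notes, reads were aligned to mm10 with STAR and quantified with RSEM; versions are not given in the sources used here. Unstranded read counts per gene (24054 symbols) were deposited by the authors, per library. RSEM's expected counts and TPM, also deposited by the authors for each library, served as alternatives, with expected counts rounded; the joint TPM table was only checked against the library values and differed by 0 for 24027 matched names.

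The count fit ran in edgeR 4.0.16 (R 4.3.3) after filterByExpr (minimum count 10, total 15, leaving 14258 genes) and TMM. It had 1 coefficient for each group in a robust quasi-likelihood model of all 33 libraries. The code was run on simulated data in which all groups had the same spread, so that run cannot speak for groups of unlike spread. The group quality weights of limma voom were 0.19 for CD11bhi YFP- and 0.849 for the kidney cDC2 libraries compared. CPM are TMM-scaled. Alternatives (limma 3.58.1, DESeq2 1.42.0, other scalings, filters, sample sets and units, a block by sort code, each library left out) are given in the closing section. The text names the 12 largest folds in each direction among non-overlapping genes that met the pair rule, without predicted genes and clones, the sort panel and at most 6 members of each list, with exceptions marked; 1 gene is not reported here. Coordinates and promoters are from RefSeq GRCm38.p6. The members, lists and rules were chosen with earlier results of these data known. Replicate numbers follow the deposited order, and intervals cover counting error only (95%; floor of 3 reads).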

Additional observations from a re-analysis of the deposited data

Results flagged for a closer look

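Among the 24 genes with the largest folds, 9 lower genes differed between the YFP- and YFP+ fractions of CD11bhi cells, by the contrast of the fractions in the same fit (edgeR, Benjamini-Hochberg). They were at or near 0 in both CD11bhi YFP- libraries, so the fitted log2 folds depend on a small added count and are not bounds. In the order YFP- minus YFP+, these folds were -7.95 for Xkrx, -8.66 for Serpinb6b, -7.66 for Timd4, -9.77 for Ctsw and -4.69 for Adam23. Those of the other 4 were -6.16 for Slain1, -5.58 for Dcun1d4, -4.67 for Bbs9 and -5.42 for Bmp2. Adjusted p was smallest for Bbs9 (6.43e-06) and largest for Timd4 (0.0414). Bbs9 was at 0 and 0.875 CPM in CD11bhi YFP- cells, 6.22 to 14.9 CPM in the 5 CD11bhi YFP+ libraries and 38.5 and 36.1 CPM in cDC2. Bmp2 was at 0 and 0.375 CPM in CD11bhi YFP- cells and 1.66 to 17.2 CPM in CD11bhi YFP+ cells. The contrast also takes in CD11bhi YFP+ libraries of sort codes that have no CD11bhi YFP- library. In those of SR18_034Kid1 and SR18_036, CPM were 0.222 and 0.552 for Xkrx, 0 and 6.27 for Serpinb6b and 0 and 1.51 for Timd4. They were 0.111 and 2.81 for Ctsw, 0.334 and 2.21 for Adam23 and 0.334 and 6.33 for Slain1. Dcun1d4 had 3 and 8.68, Bbs9 10.7 and 6.22 and Bmp2 5.01 and 1.66. The part of the sort code was not tested. CD11bhi YFP- libraries also had fewer genes at 1 CPM (9735 and 10482) than CD11bhi YFP+ libraries (11039 to 11338); its part in these differences was not tested.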

How the results depend on the processing

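The 4 counts are given as genes called higher and lower, then as genes that also met the level and both pairs. With group weights they were 39 and 0, then 38 and 0. The 4 libraries alone gave 1 and 0, then 1 and 0, and the 12 BS libraries alone 187 and 315. Limma on log2(TPM + 1) gave 149 genes lower in both pairs and log2(TPM + 0.1) gave 150. A minimum mean of 30 CPM left 122 higher and 125 lower. Leaving out each library in turn gave 166 to 802 higher and 529 to 2125 lower, then 139 to 647 and 223 to 1081, where 1 pair was left for the pair criterion. DESeq2, its size factors, no filter, RSEM expected counts and all 5 cDC2 libraries kept each count within 1.5 times.

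Sort codes were not taken to pair the samples: the labels do not say what a code marks, and with 2 codes, deviations of libraries of the same code correlated at 0.0231 across genes. A replicate block by sort code gave 429 and 949, then 220 and 292 over all libraries; in the 4 libraries alone the block gave 22 and 15, then 22 and 14.

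Of 90 called genes named by the rule, 47 stayed called without each of the 4 libraries in turn and 16 with group weights. Leaving out each library in turn, the log2 fold ranged over -2.37 to 9.72 for Tlr8, reversed without CD11bhi YFP- replicate 1, and over -7.28 to 6.60 for Cfb, reversed without CD11bhi YFP- replicate 2; the cause was not tested. Trem2, C5ar1, Thbs1 and Slco2b1 had no read left in either group without CD11bhi YFP- replicate 2. Depth limits the genes without reads, whose folds are bounds.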

Other observations

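Several of the genes called higher in CD11bhi YFP- cells with group weights were abundant and close between libraries. These were picked after their values were seen, and all but Cd81 of the macrophage list stand outside the lists. Tgfbi, an extracellular matrix protein that macrophages secrete, was at 619 and 823 CPM in CD11bhi YFP- cells, against 169.5 and 136 CPM in kidney cDC2, a log2 fold of 2.24 ± 0.21 (adjusted p = 1.79e-07, edgeR). The tetraspanin gene Cd81 was at 279 and 259.5 CPM against 24.3 and 47.3 CPM in cDC2, a log2 fold of 2.91 ± 0.37, and Cebpb, a transcription factor of myeloid cells, at 222 and 401 CPM against 57.8 and 58.9 CPM in cDC2, a log2 fold of 2.42 ± 0.41. Timp2, an inhibitor of metalloproteinases, was at 121 and 129 CPM against 31.4 and 28.7 CPM in cDC2, so that this inhibitor was higher beside Mmp12 and Mmp13. Lysosomal enzymes were among them: Gusb, the beta-glucuronidase, was at 275 and 325 CPM against 134 and 122 CPM in cDC2 and Pla2g15, a lysosomal phospholipase, at 71.9 and 92.8 CPM against 22.1 and 24.2 CPM in cDC2. Pgd, of the pentose phosphate pathway, was at 183 and 231 CPM against 71.1 and 68 CPM in cDC2, a log2 fold of 1.57 ± 0.18. Matrix and adhesion genes of lower abundance were Itga9, an integrin chain, at 43.8 and 78.6 CPM against 2.72 and 0 CPM in cDC2, and Matn2, a matrilin, at 24 and 28.7 CPM against 0.0477 and 1.24 CPM in cDC2. CD11bhi YFP+ cells had medians of 686 CPM for Tgfbi, 320.0 for Cd81, 137 for Timp2 and 38.4 for Itga9.

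The macrophage list also held genes known from microglia, and these and Cadm1 were likewise picked after their values were seen. Tmem119 was at 12 and 13.2 CPM against 0.0477 and 0.985 CPM in cDC2 (log2 fold 4.62 ± 0.86, adjusted p = 0.000863, edgeR) and P2ry12 at 6.66 and 7.63 CPM against 2.2 and 2.49 CPM in cDC2 (adjusted p = 0.0113, edgeR), while Gpr34 was lower, at 9.29 and 23.8 CPM against 67 and 57.9 CPM in cDC2 (adjusted p = 0.000359, edgeR). F4/80hi YFP- cells had medians of 375 CPM of Tmem119 and 62.2 CPM of P2ry12. Cadm1, an adhesion gene of cDC1, was higher in CD11bhi YFP- cells at 126 and 164 CPM against 39.6 and 33.2 CPM in cDC2 (log2 fold 1.99 ± 0.27, adjusted p = 1.69e-05, edgeR), with a median of 191 CPM in CD11bhi YFP+ cells.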
